A study of Mus musculus with 4 samples.

Results

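Titin, nebulin and the proteins of the Z-disc form the scaffold of the striated muscle sarcomere, and the RNA of 10 genes of this scaffold was compared between visceral and parietal mesothelium of the mouse. The genes are Ttn, Neb, Myot, Acta1, Actn2, Actn3, Myoz1, Tcap, Ldb3 and Des, taken by name from the rows of the array that carry exactly 1 gene symbol. All 10 were measured, each by 1 row, among 19938 genes and 35556 rows in all. Visceral mesothelium came from the omentum and parietal mesothelium from the body wall of untreated adult mice, and total RNA was hybridized to 4 Affymetrix Mouse Gene 1.0 ST arrays, 2 per tissue. Every animal carried Wt1-cre and Rosa26ReYFP on a c57bl/6 background, so that cells in which the Wt1 promoter has driven Cre express a yellow fluorescent reporter in both tissues. The parietal sheet was teased off skeletal muscle by hand, and the arrays measured the whole sheets without cell sorting. The arrays of a tissue are labelled biological replicates, but how many animals gave the RNA of an array is not stated, and the p-values therefore cover array-to-array spread that may be partly technical.

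In a sarcomere, the thin filaments of actin are anchored in the Z-disc, where alpha-actinin crosslinks filaments of opposite polarity. Titin spans from the Z-disc to the M-band and acts as a molecular spring, and nebulin runs along the thin filament and bears on its length. Myotilin, myozenin, telethonin and the PDZ-LIM protein encoded by Ldb3 bind alpha-actinin or titin at the Z-disc, and desmin filaments link neighbouring Z-discs to each other and to the membrane. The proteins are hallmarks of differentiated striated muscle fibres, whereas a mesothelium is a simple squamous epithelium that is not known for sarcomeres. Desmin is also made by smooth muscle and by other mesenchymal cells.

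RefSeq windows of 250 bases before a transcript start, on build GRCm38.p6, were at hand for 5 of the 10 genes, Acta1, Actn2, Des, Ldb3 and Ttn, with 6 starts in all. They were searched for binding sequences of factors known from muscle genes, with patterns that read the same on both strands. The patterns were the E-box CANNTG of basic helix-loop-helix factors, the site named after MEF2 and the CArG box of serum response factor. The windows of Acta1, Ttn and Ldb3 are shown because they hold the rarer of these matches, with every match in capitals, 5′ to 3′.
Ttn, chr2:76982548-76982797, minus strand: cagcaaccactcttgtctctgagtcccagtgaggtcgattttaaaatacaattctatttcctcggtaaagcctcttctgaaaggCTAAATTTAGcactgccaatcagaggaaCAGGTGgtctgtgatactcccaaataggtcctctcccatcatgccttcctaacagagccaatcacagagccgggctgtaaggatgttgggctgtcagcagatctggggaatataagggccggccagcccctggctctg
Acta1, chr8:123894776-123895025, minus strand: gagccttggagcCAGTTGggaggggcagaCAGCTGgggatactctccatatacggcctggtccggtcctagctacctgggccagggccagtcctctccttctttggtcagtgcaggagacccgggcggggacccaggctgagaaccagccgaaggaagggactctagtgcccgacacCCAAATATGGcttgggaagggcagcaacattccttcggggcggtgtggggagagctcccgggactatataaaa
Ldb3, chr14:34588682-34588931, minus strand: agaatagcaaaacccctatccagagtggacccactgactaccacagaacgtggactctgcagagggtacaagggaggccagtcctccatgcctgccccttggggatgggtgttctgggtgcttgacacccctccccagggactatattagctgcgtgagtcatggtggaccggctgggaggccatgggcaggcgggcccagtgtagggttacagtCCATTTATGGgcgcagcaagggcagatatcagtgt
In the Ttn window the match to the MEF2 site lies at -166 to -157 from the start and an E-box at -138 to -133. Such a MEF2 match is found in 2.92% of all 32851 windows of this length. The CArG match of Acta1 lies at -73 to -64, with E-boxes at -238 and -221. The CArG match of Ldb3 lies at -35 to -26 from one start and, being the same bases, at -109 to -100 from the other. A CArG match is found in 1.47% of all windows. Des, with E-boxes at -220 and -36, and Actn2, with E-boxes at -245, -84 and -48, had neither of the rarer matches, and an E-box is found in 66.2% of all windows. None of these matches overlaps another. They are descriptions of the letters and say nothing of binding.

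All 10 scaffold genes were called higher in parietal mesothelium, by 2.77-fold for Tcap to 60.4-fold for Neb. The median log2 difference, parietal minus visceral, was 4.18 over the 10 genes and 0.00 over all genes. A gene counted as called when limma, which borrows the estimate of spread from all genes, gave it an adjusted p (Benjamini-Hochberg) below 0.05 and the fold reached 1.5. Of all 19938 genes, 9.60% were called in either direction and 4.39% were called higher in parietal mesothelium. For each of the 10 genes both parietal arrays lay above both visceral arrays, an arrangement that 27.4% of all genes share. The smallest distance between the tissues was that of Des, with 0.99 on the log2 scale between the lower parietal and the higher visceral array. In such whole-sheet samples, more cells of a type and more RNA per cell cannot be told apart.

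The filament scaffolds of titin and nebulin differed most, together with skeletal actin. Neb had log2 RMA signals of 6.13 and 6.14 on visceral replicates 1 and 2, and of 11.80 and 12.30 on parietal replicates 1 and 2. The visceral arrays were close to each other and both far below the parietal arrays. The log2 difference was 5.92 (standard error 0.17, limma adjusted p = 5.49e-05), with a 95% interval of 45.3 to 80.5 for the fold. Ttn had signals of 6.37 and 6.33 on the visceral and of 11.81 and 12.33 on the parietal arrays. Its arrays were thus set apart in the same way, with a log2 difference of 5.72 (limma adjusted p = 6.68e-05, standard error 0.17). Acta1, which encodes the alpha-actin of skeletal muscle thin filaments, had signals of 7.83 and 7.81 on the visceral and of 13.22 and 13.38 on the parietal arrays. All 4 arrays of Acta1 were tight within their tissue, and its difference of 5.48 had the smallest standard error of the 10 genes, 0.09 (adjusted p = 2.94e-05 from limma, 44.7-fold). Among all genes ordered by parietal excess, Neb, Ttn and Acta1 held ranks 5, 7 and 9.

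**Figure D1:**
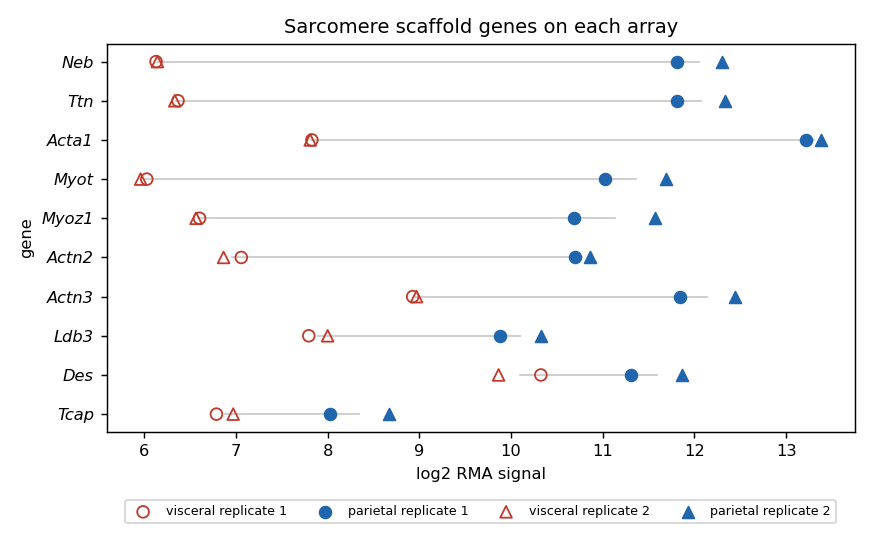
Log2 RMA signal (x axis) of the 10 scaffold genes (y axis, in the order of their differences) on each array. Open red symbols are visceral and filled blue symbols parietal arrays, circles replicate 1 and triangles replicate 2, and grey lines join the tissue means; for none of the 10 do the tissues overlap, and parietal replicate 2 lies above parietal replicate 1 for every gene.

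In the order of the differences, the Z-disc genes Myot, Myoz1, Actn2 and Actn3 followed. Myot, encoding the actin-binding Z-disc protein myotilin, had signals of 6.03 and 5.96 on the visceral and of 11.03 and 11.68 on the parietal arrays, with a mean gap between tissues of 5.36 on the log2 scale (standard error 0.21, limma adjusted p = 0.000123). Myoz1, encoding a myozenin of fast fibres that binds alpha-actinin and calcineurin, had signals of 6.60 and 6.56 on the visceral and of 10.69 and 11.57 on the parietal arrays. Its parietal arrays were the farthest apart of the 10 genes, and its difference was 4.55 with a standard error of 0.28 (adjusted p = 0.000431 from limma). Both sarcomeric alpha-actinins were called. Actn2, the isoform of all striated muscle, had signals of 7.06 and 6.86 on the visceral and of 10.70 and 10.86 on the parietal arrays, differing by 3.82 (standard error 0.11, limma adjusted p = 5.49e-05). Actn3, the isoform of fast glycolytic fibres, had signals of 8.93 and 8.97 on the visceral and of 11.84 and 12.44 on the parietal arrays, differing by 3.19 (standard error 0.19, limma adjusted p = 0.000439). In folds these are 41.2 for Myot, 23.4 for Myoz1, 14.1 for Actn2 and 9.12 for Actn3.

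The smallest differences were those of Ldb3, Des and Tcap. Ldb3, whose PDZ-LIM protein keeps the Z-disc intact under load, had signals of 7.79 and 8.00 on the visceral and of 9.88 and 10.33 on the parietal arrays. The excess of 2.21 on the log2 scale (standard error 0.17, limma adjusted p = 0.000889) equals 4.61-fold. Tcap, encoding telethonin, which caps the Z-disc end of titin, had signals of 6.79 and 6.97 on the visceral and of 8.03 and 8.67 on the parietal arrays. Tcap thus differed by 1.47 (standard error 0.21, limma adjusted p = 0.00884), with a 95% interval of 1.92 to 3.99 for the fold, whereas the interval of its partner Ttn was 39.2 to 71.0. Des, the muscle intermediate filament, had signals of 10.32 and 9.86 on the visceral and of 11.31 and 11.86 on the parietal arrays. Its visceral arrays were the farthest apart of the 10 genes, and its difference of 1.49 (2.81-fold, standard error 0.23, limma adjusted p = 0.0107) had the highest adjusted p of the set.

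Ordered by difference, the genes ran Neb, Ttn, Acta1, Myot, Myoz1, Actn2, Actn3, Ldb3, Des and Tcap. All genes were read on the same 4 arrays, so the gap of each of the 9 pairs of neighbours was taken within every array, with a standard error from the spread of these values between arrays of a tissue. By this measure 4 gaps were under 2 standard errors, those of Ttn and Acta1 (gap 0.24, standard error 0.18), Acta1 and Myot (0.12, standard error 0.25), Myoz1 and Actn2 (0.73, standard error 0.37) and Des and Tcap (0.02, standard error 0.32). The other 5 were larger, among them those of Neb and Ttn (0.19, standard error 0.03) and of Actn3 and Ldb3 (0.98, standard error 0.11). Each standard error rests on 2 arrays per tissue and is itself imprecise. No test across genes was made for this order, and each row has probes of its own.

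Between the parietal arrays, the 10 genes moved together. Each was higher on parietal replicate 2 than on parietal replicate 1, by 0.16 for Actn2 and Acta1 to 0.89 for Myoz1, with a median of 0.54. Over all genes 50.1% were higher on that array, and the median was 0.00. For 8 of the 10, all but Acta1 and Actn2, the excess lay outside the range of -0.39 to 0.37 that holds the central 95% of all genes. Between the visceral arrays, 4 of the 10 were higher on replicate 2, the median was -0.03, and the gap of Des alone, -0.46, lay outside the central 95%, -0.43 to 0.37. The SD between parietal arrays exceeded that between visceral arrays for 9 of the 10 genes, Actn2 being the exception (0.11 against 0.14). The same parietal array was the higher for 22 of 24 other fibre genes, with a median gap of 0.44, and for 49 of 62 other scaffold genes, with a median of 0.25. Of 18 mesothelial markers 8 were higher on that array, with a median of -0.03. Adipocyte genes were divided, with a median of -0.18. On parietal replicate 2, 4 of 11 were higher, namely Plin4 (0.39), Car3 (0.18), Pparg (0.15) and Lipe (0.04). The lowest gaps of that list were those of Retn (-2.01), Adipoq (-1.54), Cidec (-0.97) and Fabp4 (-0.87). These genes encode fat cell hormones, a lipid droplet protein and a fatty acid carrier, and their gaps ran opposite to those of the 10 scaffold genes. What set the parietal arrays apart was not tested. Without parietal replicate 2 all 10 genes were called, with the difference at 5.67 for Neb, 4.10 for Myoz1 and 1.15 for Tcap. Without parietal replicate 1 all 10 were called as well, with 6.16, 4.99 and 1.79 for these genes.

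**Figure D2:**
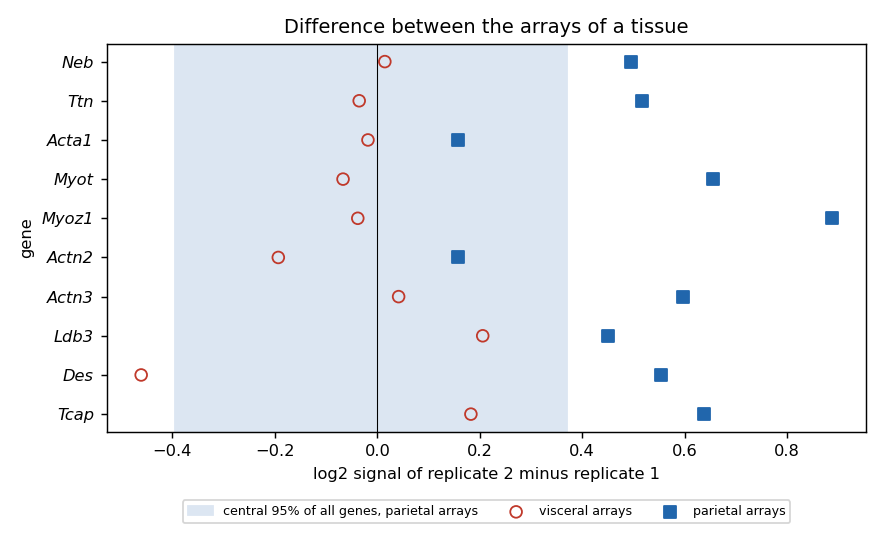
Log2 signal of replicate 2 minus replicate 1 (x axis) for each scaffold gene (y axis), as red circles for the visceral and blue squares for the parietal arrays. The shaded band holds the central 95% of all genes on the parietal arrays, -0.39 to 0.37; all 10 squares lie to the right of 0 and 8 of them outside the band.

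Within the gene families, cardiac actin, both other myozenins and myopalladin were called higher in parietal mesothelium, nebulette was called higher in visceral mesothelium, and the smooth muscle and non-muscle actins and alpha-actinins were not called. Of 15 measured paralogs, chosen with earlier results known, 4 were called higher in parietal and 1 was called higher in visceral mesothelium, with a median difference of 0.11. Among actins, cardiac Actc1 had signals of 7.74 and 7.66 on the visceral and of 10.40 and 9.65 on the parietal arrays (difference 2.33, adjusted p = 0.00254 from limma), and here parietal replicate 1 was the higher. Smooth muscle Acta2 differed by -0.55 (adjusted p = 0.119 from limma) and passed without visceral replicate 2, at -0.83. Enteric Actg2 differed by -2.06 (adjusted p = 0.0869 from limma), with visceral signals of 9.75 and 7.74 and parietal signals of 6.59 and 6.78. It passed without visceral replicate 1, at -1.06, and without visceral replicate 2, at -3.07. Cytoplasmic Actb differed by -0.07 (95% interval -0.26 to 0.13). Actin and alpha-actinin paralogs have closely similar coding sequences, so their rows may not tell the transcripts fully apart. Among the alpha-actinins, non-muscle Actn1 had a difference of -0.43, below the 1.5-fold limit (limma adjusted p = 0.0437), and Actn4 of 0.23 (limma adjusted p = 0.125).

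Among the myozenins, Myoz2 of slow and cardiac muscle had a difference of 3.60 (adjusted p = 0.000175 from limma) and Myoz3 of 0.68. Both were called, but Myoz3 lost its call without visceral replicate 2 (0.62) or parietal replicate 2 (0.55). In the family of Myot, myopalladin, Mypn, was higher by 2.70, with signals of 5.67 and 5.56 on the visceral and of 7.91 and 8.72 on the parietal arrays. The broadly expressed palladin, Palld, differed by -0.10 (95% interval -0.31 to 0.11). Among PDZ-LIM genes, Pdlim3 (1.43), Pdlim5 (0.72) and Pdlim7 (0.70), listed with the Z-disc below, were called higher in parietal mesothelium. Pdlim1, Pdlim2 and Pdlim4 had differences of 0.11 to 0.28 and were not called. Pdlim5 no longer passed without visceral replicate 1 (0.70), visceral replicate 2 (0.74) or parietal replicate 2 (0.58).

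Members of the nebulin family differed in opposite directions. The nebulin-related anchoring protein Nrap was higher in parietal mesothelium by 3.08 (adjusted p = 0.00118 from limma). Nebl, encoding nebulette, the nebulin relative of heart muscle that other tissues also transcribe, was higher in visceral mesothelium, with signals of 9.27 and 9.46 on the visceral and of 6.89 and 6.59 on the parietal arrays (difference -2.63, standard error 0.13, limma adjusted p = 0.000242). A separate Nebl row of lower signal had a difference of -0.66, also lower in parietal mesothelium. Lasp1, a small LIM and SH3 protein with nebulin repeats, differed by 0.01 (95% interval -0.24 to 0.25). The intermediate filament gene Vim, which non-muscle mesenchymal cells use, differed by -0.14 (95% interval -0.34 to 0.07).

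**Figure D3:**
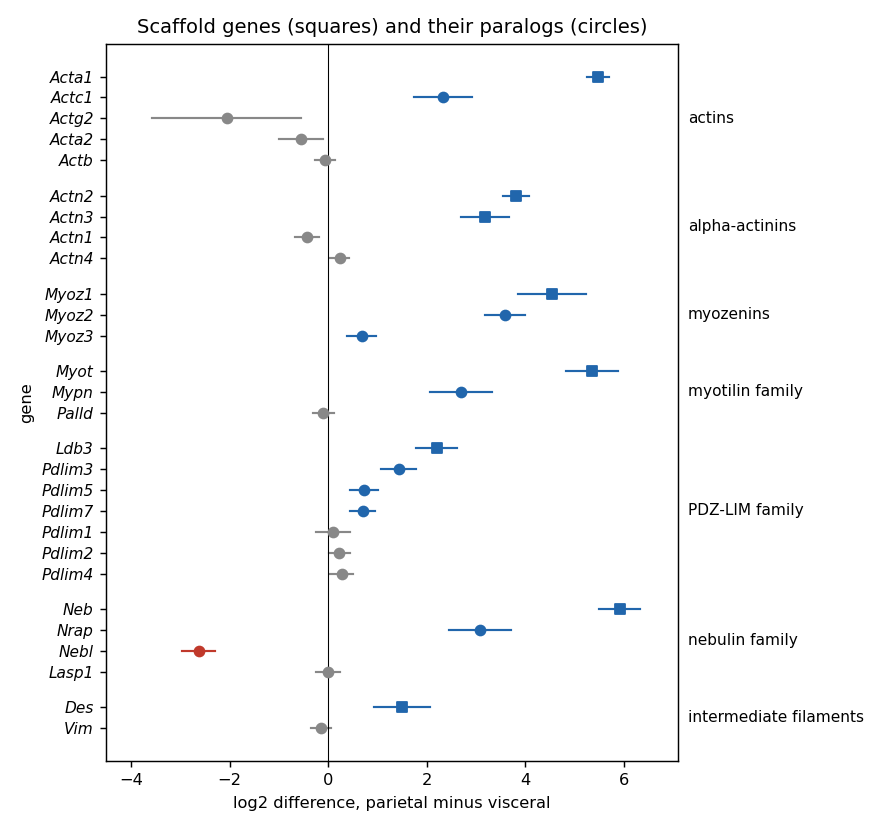
Log2 difference, parietal minus visceral (x axis), of 8 of the scaffold genes (squares) and other members of their families (circles), grouped by family (y axis), with 95% intervals from limma as lines. Blue marks genes called higher in parietal, red higher in visceral mesothelium and grey not called; the 8 squares are blue, and Nebl, at -2.63, is the only red point.

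Further genes of the sarcomere scaffold were called in the same direction more often than not. Of 62 measured genes on 4 lists, 38 were called higher in parietal and 2 higher in visceral mesothelium, against 4.39% and 5.22% of all genes, with a median difference of 0.89. The lists were chosen with earlier results of these data known. Of 24 other genes of the Z-disc and its links to the membrane, 17 were called higher in parietal mesothelium. Xirp2, an actin-binding Xin repeat protein, had the largest difference of this list, 4.80, with signals of 5.19 and 5.40 on the visceral and of 9.74 and 10.45 on the parietal arrays. Its relative Xirp1 differed by 1.88 and the titin-binding ankyrin repeat protein Ankrd23 by 3.04. Synpo2, which smooth muscle also expresses, was called higher in visceral mesothelium at -0.59, but fell short of the 1.5-fold limit with the arrays rescaled (-0.58 to -0.56) and without visceral replicate 1 (-0.58) or parietal replicate 1 (-0.53). The actin crosslinker Flnc differed by -0.19 and was not called.

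Of 13 genes of the M-band, the thick filament scaffold and titin-bound turnover, 11 were called higher in parietal mesothelium, with a median difference of 1.68. The myosin binding proteins Mybpc2, of fast fibres, and Mybpc1, of slow fibres, differed by 3.89 and 2.49. Myom2, an M-band crosslinker, differed by 3.25 and Cmya5, which is found at the costamere and Z-disc, by 3.09. Of 16 genes of the nebulin family and of the ends and stability of thin filaments, 7 were called higher in parietal and 1, Nebl, higher in visceral mesothelium, with a median of 0.30. Klhl41, a kelch protein that stabilizes nebulin, differed by 3.37 and the filament nucleator Lmod3 by 1.67. The capping protein Capza1 differed by -0.28 and was not called. Of 11 chaperones and small heat shock proteins, 5 were called higher in parietal mesothelium, with a median of 0.48. Hspb6 differed by 2.93, Hspb7 by 2.37, and the myosin chaperones Unc45b and Smyd1 by 1.53 and 2.17. The stress proteins Hspb8 and Hspb1, which many cell types express, differed by -0.52 and -0.14 and were not called, though Hspb8 passed without visceral replicate 2, at -0.80. Nrap and Ankrd2 are each on 2 of these lists and are counted once in the total.

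**Figure D4:**
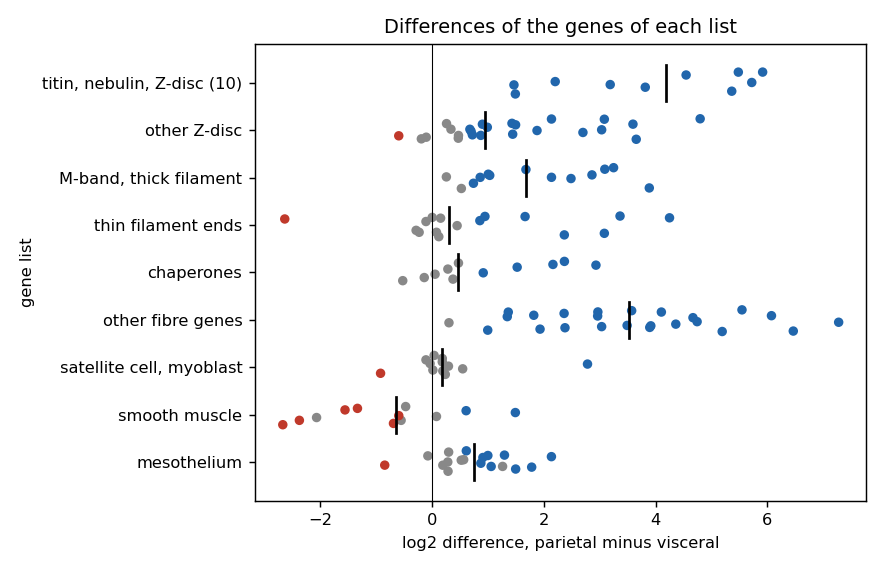
Log2 difference, parietal minus visceral (x axis), for 9 gene lists (y axis), with 1 point per gene, blue where called higher in parietal, red where higher in visceral mesothelium and grey where not called, and black bars are medians. All 10 scaffold genes and 23 of 24 other fibre genes are blue, while the smooth muscle list has a median of -0.64.

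Genes of muscle fibres outside the scaffold differed in the same direction as the 10 genes, and their part in the result was not tested. Of 24 such genes 23 were called higher in parietal mesothelium, with a median of 3.53, led by the myosin light chain Myl1 at 7.28 and the calcium buffer Pvalb at 6.46. Their summed signal on the linear scale was 6567 to 7106 in visceral and 77646 to 101556 in parietal mesothelium, and that of the 10 scaffold genes was 2463 to 2777 and 29530 to 39996. Of 14 slow fibre and cardiac sarcomere genes, 9 were called, all higher in parietal mesothelium, among them the slow myosin Myh7 (2.32) and its light chain Myl2 (2.41). The median of this list was 1.29 and its summed signal was 9015 to 10086 in visceral and 12985 to 13016 in parietal mesothelium. Tpm3 and Atp2a2, the brightest genes of the list, weigh most in that sum and were not called. Tpm3 had log2 signals of 12.16 and 12.04 on the visceral and of 12.12 and 12.02 on the parietal arrays. Those of Atp2a2 were 11.91 and 11.59 on the visceral and 11.61 and 11.44 on the parietal arrays. Separate Tpm3 rows of lower signal differed by 0.99, 0.12 and 0.11. The first of these rows had 9.60 and 9.38 on the visceral and 10.39 and 10.56 on the parietal arrays. Of 12 satellite cell and myoblast genes, 1 was called higher in parietal mesothelium, the regulator of mature fibres Myf6 (2.78), and 1 higher in visceral mesothelium, Vcam1 (-0.92). Myod1 differed by 0.55 (limma adjusted p = 0.0113), below the 1.5-fold limit, and Calcr by 0.30 (limma adjusted p = 0.0904). Pax7, the defining gene of satellite cells, which is outside the rule for named genes, differed by 0.02. Without parietal replicate 1 the count higher in parietal mesothelium was 2. The summed signal of that list was 1436 to 1440 in visceral and 1714 to 2068 in parietal mesothelium. The parietal excess of this sum lay largely in Myf6, which had the largest difference of the list, while the list median was 0.19. For 7 of the 12 genes both parietal arrays lay above both visceral arrays, as for 27.4% of all genes. For 1 of the 12 the reverse held. Whether parietal mesothelium held more satellite cell or myoblast RNA was not tested.

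The labelled tissue was checked on 18 mesothelial markers, of which 9 were called higher in parietal and 1, Wt1 (-0.84), higher in visceral mesothelium. Their summed signal was 74258 to 75508 in visceral and 113382 to 115212 in parietal mesothelium. Mesothelin, Msln, had signals of 10.70 and 10.82 on the visceral and of 12.96 and 12.83 on the parietal arrays. Of 12 smooth muscle genes, a list that includes Des, 6 were called higher in visceral and 2, Des and Mylk (0.61), higher in parietal mesothelium. Their summed signal was 10069 to 13813 in visceral and 8540 to 9641 in parietal mesothelium. On visceral replicate 1, 10 of these 12 genes, Des itself included, were higher than on visceral replicate 2. Over all genes 50.95% were higher on visceral replicate 2. The smooth muscle myosin Myh11 had visceral signals of 9.81 and 9.65 and parietal signals of 6.87 and 7.25, a difference opposite to that of Des, and the part of smooth muscle RNA in the signal of Des was not tested. Of 13 macrophage and dendritic cell genes 12 were called higher in visceral mesothelium, among them Mrc1 (-2.69). Of 11 adipocyte genes 3 were called higher in parietal mesothelium, Car3 (5.18), which skeletal muscle also expresses, Plin4 (1.33) and Lpl (0.85), while Pparg (-0.17) and Lipe (-0.07) were not called and the median was 0.49. Of 12 endothelial genes 2 were called higher in parietal mesothelium, Esam (0.69) and Cdh5 (0.60). The endothelial median was -0.03, and Pecam1 (-0.24) and Emcn (-0.26) were not called. Mylk lost its call without visceral replicate 2 or parietal replicate 1, leaving 1 gene of that list higher in parietal mesothelium. The adipocyte count was 7 without parietal replicate 2, and the endothelial count was 1 without that array or without visceral replicate 1. An array gives no value of 0, so no marker can be called absent.

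The genes outside all lists whose profile lay closest to the mean of the 10 were Hjv, Asb12, Ptprq, Hoxc6 and Cox8b. Closeness was the Euclidean distance over the 4 arrays between log2 signals centred on each gene's mean, and ran from 0.26 for Hjv to 0.32 for Cox8b. Hjv, encoding the iron regulator hemojuvelin, had signals of 6.76 and 6.94 on the visceral and of 10.25 and 10.93 on the parietal arrays. Cox8b, a subunit of cytochrome oxidase in muscle, had 6.53 and 6.48 on the visceral and 10.20 and 11.06 on the parietal arrays. Hoxc6, a positional homeobox factor, had 6.47 and 6.57 on the visceral and 10.30 and 10.41 on the parietal arrays. With 2 tissues and 4 arrays, this likeness rests mainly on the size of the difference between tissues.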

How the data were processed

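RNA of visceral and parietal mesothelium was measured on 4 arrays, 2 per tissue. The log2 values were deposited by the authors after RMA, which corrects background, equalizes array distributions and summarizes each probe set, and the submitters' processing notes name Partek 6.6. Equalizing distributions sets each gene relative to the others of its array, and remaining background narrows folds of dim genes. Array medians were 7.38 to 7.41. The values were used as deposited.

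Rows were named through the platform annotation, in which 21789 rows have 1 gene symbol, 1621 several and 12146 none. For each gene the row with the highest mean was kept. The symbols of all 10 genes were unchanged by gene identifier in RefSeq. limma 3.58.1 (R 4.3.3) was fitted to the 4 arrays with tissue as the only term, and p-values were adjusted over 19938 genes. The code was tested on simulated data. Intervals are 95% intervals from limma. The number of arrays limits the precision.

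The members and lists were chosen with earlier results of these data known. Other genes named are all measured paralogs, up to 4 per list with the lowest adjusted p, up to 2 per list against its median, and the 5 closest profiles, and not every gene of the rule is given. Pax7, Pecam1, Retn, Adipoq, Cidec and Fabp4 were added after their values were seen, as were the counts between arrays of a tissue and the genes named for a call lost or gained under an alternative. Alternatives tried were 2 other variance priors, stricter limits, the one-way analysis of variance named in the study's methods (adjusted or not; for 2 groups it equals an equal-variance t-test), 3 further normalizations, a filter on dim genes, the mean of a gene's rows, all rows, the replicate number as a block, and each array left out in turn. Scan dates were not analysed here, and the annotation version behind RMA is not given in the sources used here.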

Additional observations from a re-analysis of the deposited data

How the results depend on the processing

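All 10 scaffold genes kept their direction under every alternative that measured them and were called under the other variance priors, the 3 normalizations, the mean of a gene's rows, all rows and on leaving out each array. Each of the 10 has 1 row, so taking the mean of a gene's rows left their own values unchanged. Under the filter on genes above the median signal, Tcap was not tested and the other 9 were called. At an adjusted p under 0.01 Des did not pass (limma adjusted p = 0.0107), and with a fold of at least 4 Des and Tcap did not. With that fold 18 and 1 of the other scaffold genes were called higher in parietal and visceral mesothelium, and 173 and 138 of all genes. The one-way analysis of variance of the study's methods, computed here per gene on these 4 arrays, called after adjustment 0 of the 10, 0 of the other scaffold genes and 0 of all genes in either direction. Without adjustment it called 9 of the 10, all but Des, and 706 and 876 of all genes higher in parietal and visceral mesothelium. Under the filter on dim genes, 25 other scaffold genes were called higher in parietal mesothelium, as fewer were tested. With all rows tested this count was 34, as Tmod1, Klhl40, Trim55 and Trim63 lost their calls. With the mean of a gene's rows it was 37, as Tmod1 fell below the 1.5-fold limit, at 0.50. The separate row of Tmod1 differed by 0.15. With each array centred on its median, quantile normalization or cyclic loess, the count higher in visceral mesothelium was 1, without Synpo2, and it ran from 1 to 3 on leaving out each array. Called in parietal mesothelium, Tmod1, Klhl40, Nexn, Trim54, Trim55 and Trim63 each lost the call on leaving out at least 1 of the arrays, while Fhl3, Kbtbd13 and Myom3 gained one.

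On leaving out each array, the number of all genes called ran from 741 to 954 higher in parietal and from 955 to 1141 higher in visceral mesothelium, and of the other scaffold genes higher in parietal mesothelium from 32 to 40. The highest adjusted p of the 10 genes over the limma alternatives was 0.0492, for Tcap. With the replicate number as a block 10 of 10 and 38 other scaffold genes were called. Same-numbered arrays of the tissues deviated together (r = 0.356 across genes, which are not independent), but nothing in the labels says that a number marks a shared animal. A lone array of a tissue is assumed to vary like those of the other tissue.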
